A study of Homo sapiens with 6 samples.

Results

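Interleukins carry signals between immune cells and from immune cells to tissues such as the liver, and the receptors for them decide which cells can respond. Described here are 10 such genes, the ligand subunits IL23A and IL15 and the receptor chains IL22RA1, IL10RB, IL17RA, IL17RB, IL17RC, IL15RA, IL4R and IL13RA1. They were taken as a list of gene symbols, by a rule that uses no measured value although earlier results of these data were known, and are 10 of the 30987 genes in the deposited count table. The libraries came from HepG2, an established human hepatoma line, and the labels name no added cytokine. HepG2 cells received siRNA against PAIP1, a protein that binds poly(A)-binding protein and acts in translation initiation, or a non-targeting control siRNA, by lipofection. Both groups were harvested 48 h later, with 3 biological replicates in each (siPAIP1 and Ctrl), and 1 of the study's PAIP1 siRNAs was used for sequencing. RNA selected for poly(A) was sequenced to ask which genes PAIP1 knockdown changes.

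Most of these receptors work as pairs of chains, and a cell responds to a cytokine only where it has both. IL22RA1 pairs with IL10RB to bind IL-22, which acts on hepatocytes and epithelial cells through STAT3 and induces acute-phase genes. IL17RA pairs with IL17RC for IL-17A and IL-17F and with IL17RB for IL-25. IL4R pairs with IL13RA1 to bind IL-4 and IL-13, and this pair signals through STAT6. IL23A encodes the p19 subunit that joins the p40 subunit (IL12B) to make IL-23, and IL15RA holds IL-15 at the surface for presentation to neighbouring lymphocytes.

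PAIP1 (chr5:43526267-43557758, minus strand of GRCh38) was measured first. Its FPKM, fragments per kilobase of exon scaled to the mapped fragments of the library, were 26.83, 22.96 and 26.01 in Ctrl and 8.29, 6.54 and 5.47 in siPAIP1, in the order of the replicate numbers as in every such list below. PAIP1 was lower in each siPAIP1 library than in any Ctrl library, with a log2 fold change of −1.93 (SE 0.13, adjusted p = 0.000918 by edgeR's quasi-likelihood test with Benjamini-Hochberg adjustment, which gives every adjusted p below unless another tool is named). The counts totalled 29313211 to 34659866 per library. In siPAIP1 replicate 3, 357 of 9247 well-expressed genes exceeded 2-fold the averaged level of siPAIP1 replicates 1 and 2. Every other library, compared in the same way within its own group, had at most 7 such genes. None of the 10 genes was among the 357, but IL23A, IL15 and IL15RA were too rare to count as well expressed and were not examined. The short antisense strands of the siRNAs are shown because their seed (bases 2 to 8, in capitals) can lower transcripts that carry the complementary site in the 3′ UTR.
siPAIP1 antisense: uAUCAUCCaaguauggauctt
Ctrl antisense: aCGUGACAcguucggagaatt
Neither site (GGATGAT for siPAIP1, TGTCACG for Ctrl) was found in the 3′ UTR of the canonical GENCODE transcript of any of the 10 genes. Over 12572 tested genes, 8.50% held the first and 2.97% the second.

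Most receptor chains were well expressed, and both ligand genes and IL15RA were rare. In Ctrl cells, IL13RA1 had the highest mean FPKM at 32.2 ± 1.06 (SD, n = 3), which was above 89.5% of the 16547 protein-coding genes with an FPKM. IL17RB followed with 28.9 ± 0.981, and IL4R with 13.03 ± 0.756 and IL22RA1 with 12.8 ± 1.32 were next. IL10RB stood at 9.96 ± 0.317, IL17RC at 4.78 ± 0.552 and IL17RA at 1.82 ± 0.0945. The ligand subunit IL23A had 0.877 ± 0.0945 FPKM, and IL15RA (0.0900 ± 0.0436) and IL15 (0.0367 ± 0.0208) were near the limit of detection. Among neighbours in this order, the ranges over the 3 Ctrl libraries overlapped between IL4R and IL22RA1 and between IL15RA and IL15, and lay apart for all other neighbours. In siPAIP1 cells the order differed in 1 place, where IL10RB stood above IL22RA1, and no neighbours overlapped.

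**Figure D1:**
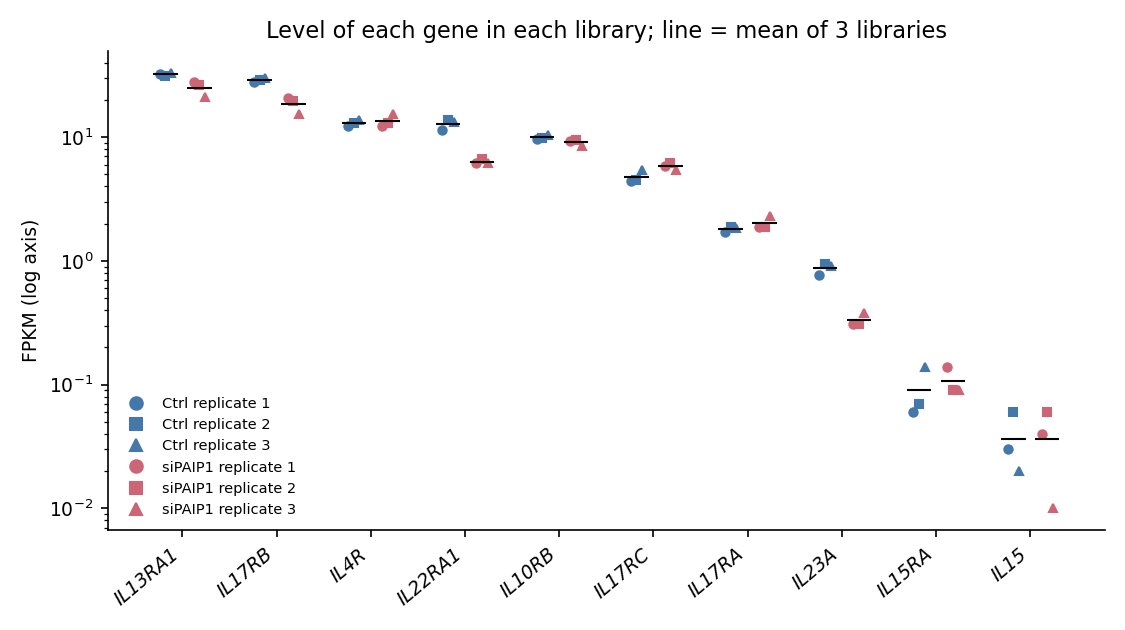
FPKM (log axis) of the 10 genes in each of the 6 libraries, ordered by mean Ctrl level, with Ctrl in blue, siPAIP1 in red, symbols for replicates and lines for the means of 3 libraries. IL13RA1 and IL17RB lead with Ctrl means of 32.2 and 28.9, and for IL22RA1 and IL23A the siPAIP1 points lie well below the Ctrl points.

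PAIP1 knockdown was accompanied by lower transcript levels of 4 of the 9 tested members, IL23A, IL22RA1, IL17RB and IL13RA1, and by a higher level of 0. Of all 15528 tested genes, 6.20% were called lower and 5.68% higher at an adjusted p under 0.05. IL15 did not pass the filter on low counts and was not tested. IL23A and IL22RA1 also met the 2-fold threshold for differentially expressed genes (DEGs), as did 1.10% of all tested genes in the lower and 1.11% in the higher direction. By CPM, counts scaled to the library size after TMM normalization, all 3 siPAIP1 libraries lay below all 3 Ctrl libraries for 5 members (17.6% of all tested genes) and above them for 1 (19.0%), and the groups overlapped for 3. The median log2 fold change of the 9 tested members was −0.16, and that of all tested genes 0.03. At an unadjusted p under 0.05, 1 member, IL17RC, was on the higher side. The siPAIP1 and Ctrl libraries are bulk RNA, so fewer cells with a transcript and less transcript per cell cannot be told apart.

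**Figure D2:**
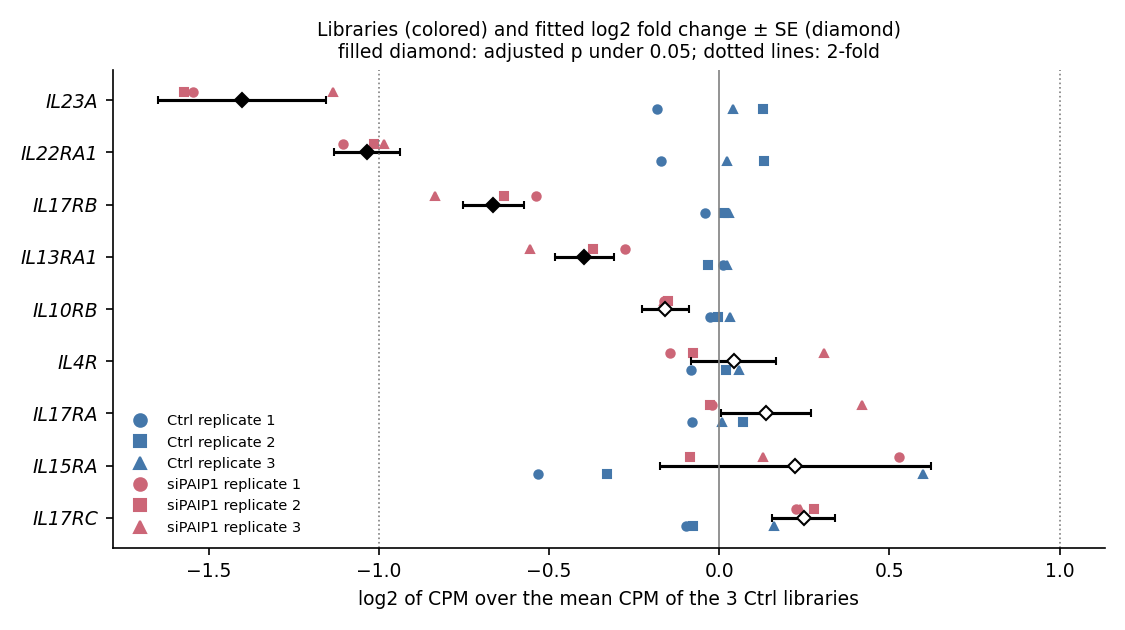
Log2 of the CPM of each library over the mean of the 3 Ctrl libraries for the 9 tested members (blue Ctrl, red siPAIP1), with the fitted log2 fold change ± SE as a diamond, filled where the adjusted p was under 0.05. The 4 filled diamonds run from −1.40 (IL23A) to −0.40 (IL13RA1), and the other 5 lie between −0.16 and 0.25.

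IL23A (ENSG00000110944.8, chr12:56334174-56340410, plus strand), the p19 subunit of IL-23, showed the largest change of the 9 tested members. It was counted 30, 37 and 32 times in Ctrl and 12, 12 and 14 times in siPAIP1, which gave FPKM of 0.77, 0.95 and 0.91 and of 0.31, 0.31 and 0.38. The groups did not overlap. The log2 fold change was −1.40 (SE 0.25, adjusted p = 0.0137), or 0.378 of the Ctrl level. These are few reads. The call was lost without Ctrl replicate 1, 2 or 3 or siPAIP1 replicate 1 or 2 (adjusted p of 0.0508 to 0.0724), with log2 fold changes of −1.49 to −1.33. Without siPAIP1 replicate 3 it held, at −1.55 (adjusted p = 0.00307).

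The partners of IL23A were scarce in both groups. IL12B, the p40 subunit that IL-23 shares with IL-12, was listed at 0 FPKM in 5 of the 6 libraries and at 0.02 in siPAIP1 replicate 3. IL23R, the specific chain of the IL-23 receptor, was between 0.01 and 0.07 FPKM. Of 8 listed genes of the IL-12 and IL-23 family, 3 were tested, 1 was lower and 0 higher, beside 6.20% and 5.68% of all tested genes. The lower gene was EBI3, a subunit of IL-27 and IL-35. It had 1.38, 1.24 and 2.14 FPKM in Ctrl and 0.42, 0.80 and 0.50 in siPAIP1 (log2 fold change −1.49, SE 0.31, adjusted p = 0.0244). IL27RA, the specific chain of the IL-27 receptor, had a log2 fold change of −0.02 (SE 0.14, adjusted p = 0.954), and IL12RB1, a chain shared by the IL-12 and IL-23 receptors, of −0.57 (SE 0.64, adjusted p = 0.584) at 0.01 to 0.12 FPKM.

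IL22RA1 (ENSG00000142677.3, chr1:24119771-24143140, minus strand), the chain that gives the IL-22 receptor its specificity, fell to 0.488 of its Ctrl level. The FPKM were 11.31, 13.85 and 13.17 in Ctrl and 6.22, 6.67 and 6.16 in siPAIP1, from 606 to 1447 counts per library. Every Ctrl library was above every siPAIP1 library by a wide margin. The log2 fold change was −1.03 (SE 0.097, adjusted p = 0.00188). It stayed called on leaving out any library, with an adjusted p of at most 0.0233, while the log2 fold change ranged from −1.12 to −0.97, so that without Ctrl replicate 2 the 2-fold threshold was no longer met. The 2 limma-trend fits on log2 FPKM, at −0.99 and −0.90, did not meet it either.

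IL10RB (ENSG00000243646.8, chr21:33266367-33311420, plus strand) is the other chain of the IL-22 receptor and is shared with the receptors for IL-10 and interferon lambda. Its FPKM were 9.74, 9.81 and 10.32 in Ctrl and 9.31, 9.47 and 8.49 in siPAIP1. The siPAIP1 libraries lay below the Ctrl libraries by a small step, and the log2 fold change of −0.16 (SE 0.069) did not pass the test (adjusted p = 0.177). Its exons overlap the readthrough gene IFNAR2-IL10RB on the same strand, so reads of both cannot be told apart here. The ratio of IL22RA1 to IL10RB FPKM was 1.16, 1.41 and 1.28 in Ctrl and 0.668, 0.704 and 0.726 in siPAIP1. The specific chain thus went from above to below its partner, with mean ratios of 1.28 ± 0.126 and 0.699 ± 0.0291 (SD, n = 3 each). An exact two-sided permutation test gave p = 0.1, the smallest that 3 against 3 libraries allow, and p = 0.167 after Benjamini-Hochberg adjustment over the 5 chain pairs examined.

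**Figure D3:**
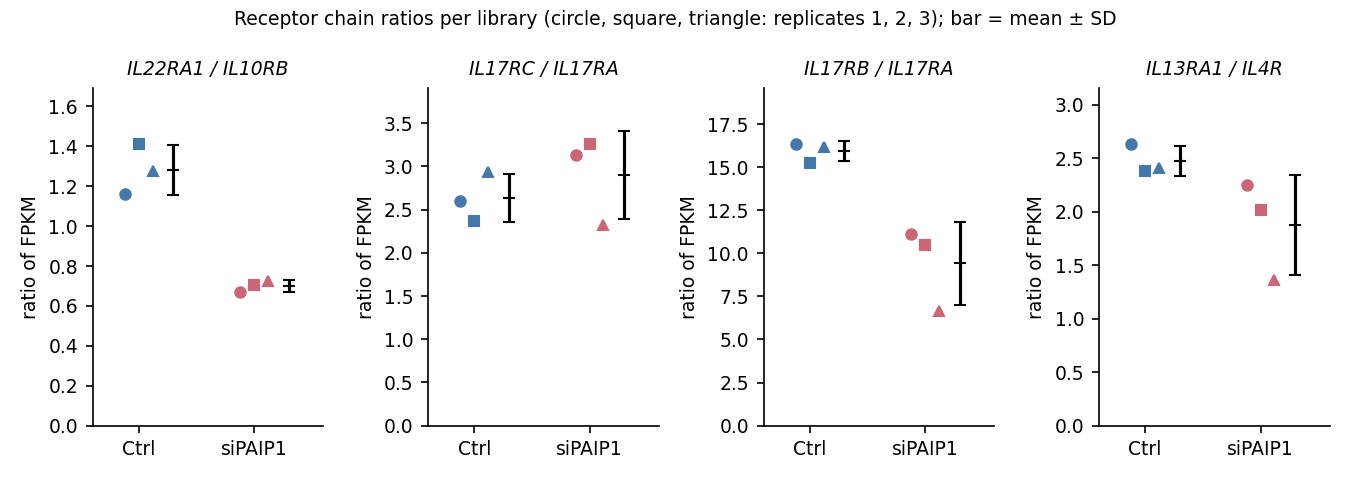
Ratio of FPKM between chains or partners in each library (axes start at 0), with mean ± SD of 3 libraries as bars. IL22RA1 over IL10RB, IL17RB over IL17RA and IL13RA1 over IL4R do not overlap between Ctrl (blue) and siPAIP1 (red), and IL17RC over IL17RA does.

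Other receptor chains of the IL-10 and IL-22 family gave no call. Of 14 listed genes of the family, 2 were tested, and 11.9% of all tested genes were called in either direction. IFNLR1, which pairs with IL10RB to bind interferon lambda, had 1.15, 1.05 and 1.51 FPKM in Ctrl and 1.44, 1.43 and 1.67 in siPAIP1 (log2 fold change 0.27, SE 0.17, adjusted p = 0.313). IL20RB, which pairs with IL22RA1 to bind IL-20 and IL-24, was at 0.16 to 0.19 FPKM (log2 fold change 0.08, SE 0.28, adjusted p = 0.893).

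Genes listed for the IL-22 response of hepatocytes, not all of them acute-phase genes, were lower or not called where tested. Of 15 listed, 9 were tested, 4 were lower and 0 higher, all 4 as DEGs. Of all tested genes, 6.20% were called lower and 5.68% higher, and 1.10% were lower DEGs. HAMP, which encodes the iron hormone hepcidin, went from 44.25, 41.91 and 52.01 FPKM to 14.52, 11.99 and 11.31 (log2 fold change −1.90, SE 0.11, adjusted p = 0.000850). HP, the hemoglobin scavenger haptoglobin, went from 13.61, 12.52 and 11.99 to 6.77, 4.94 and 3.0 (log2 fold change −1.41, SE 0.23, adjusted p = 0.0107). For each of these genes, no siPAIP1 library reached the Ctrl range. SAA4, a serum amyloid A apolipoprotein that is made constitutively and is not an acute-phase gene, had a log2 fold change of −1.31 (SE 0.17, adjusted p = 0.00520). For SERPINA3, a protease inhibitor of the acute phase, it was −1.03 (SE 0.10, adjusted p = 0.00254). Only the SERPINA3 row with more counts (ENSG00000273259.2) was used, and the change of its other row is not given. The other 5 tested genes, LCN2, BCL3 and the fibrinogen chain genes FGA, FGB and FGG, had log2 fold changes between −0.20 and −0.02 and were not called. Of the genes not tested, SAA1, CRP and REG3G were not in the count table. SAA2, LBP and REG3A had at most 4 counts in any library, so the list rests on genes already expressed in these cells. HAMP and SERPINA3 were among the genes that the study picked from these libraries, so their direction is not independent evidence. Several of these genes also respond to IL-6 and other signals. The median log2 fold change was −0.20 over these 9 genes, beside 0.03 over all tested genes. Of the lists described further on, it was 0.28 over the 10 tested Janus kinases and STATs and −0.036 over the 15 inhibitors. Over the 11 adaptors and regulators of IL-17 receptor signals it was 0.00067.

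The 3 IL-17 receptor members did not move together. IL17RB (ENSG00000056736.9, chr3:53846568-53865794, plus strand), the chain for IL-25 and IL-17B, had 27.95, 28.84 and 29.91 FPKM in Ctrl and 20.83, 19.66 and 15.47 in siPAIP1. All siPAIP1 libraries were below all Ctrl libraries, with siPAIP1 replicate 3 the lowest. Its exons overlap the gene ENSG00000271976 on the other strand. The log2 fold change was −0.66 (SE 0.090, adjusted p = 0.00598), which is 0.631 of Ctrl, and the call held on leaving out any library, with an adjusted p of at most 0.0447.

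IL17RA (ENSG00000177663.13, chr22:17084954-17115693, plus strand), the chain common to the family, had 1.71, 1.89 and 1.85 FPKM in Ctrl and 1.87, 1.88 and 2.32 in siPAIP1. Only siPAIP1 replicate 3 stood above the Ctrl range. The log2 fold change was 0.14 (SE 0.13, adjusted p = 0.524), and −0.028 without that library. IL17RC (ENSG00000163702.18, chr3:9917074-9933630, plus strand), the chain for IL-17A and IL-17F, had 4.45, 4.48 and 5.42 FPKM in Ctrl and 5.85, 6.13 and 5.39 in siPAIP1. The groups overlapped by FPKM through Ctrl replicate 3 and were just apart by CPM, at 13.2, 13.4 and 15.8 against 16.5, 17.1 and 16.6. Its log2 fold change of 0.25 (SE 0.094) did not pass the test (adjusted p = 0.134). Its exons overlap the gene ENSG00000288550 on the same strand.

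The ratio of IL17RB to IL17RA FPKM was 16.4, 15.3 and 16.2 in Ctrl and 11.1, 10.5 and 6.67 in siPAIP1 (exact two-sided permutation test, p = 0.1, 0.167 after Benjamini-Hochberg adjustment over 5 pairs). The groups did not overlap. The ratio of IL17RC to IL17RA was 2.60, 2.37 and 2.93 in Ctrl and 3.13, 3.26 and 2.32 in siPAIP1, and the groups overlapped (exact p = 0.5, adjusted 0.6).

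Expressed as a share of the summed FPKM of the 5 IL-17 receptor genes, IL17RB went from 69.1% ± 0.979 in Ctrl to 56.7% ± 5.34 in siPAIP1 (SD, n = 3 each). The IL17RC share was 11.4% ± 0.809 in Ctrl and 17.7% ± 0.415 in siPAIP1, and that of IL17RA 4.34% ± 0.181 and 6.22% ± 1.22. IL17RE, the chain for IL-17C, held 14.9% ± 0.360 and 18.7% ± 3.80. The groups did not overlap for any of the 5 shares (exact two-sided permutation test, p = 0.1 for each, the smallest possible), but shares of 1 sum are not independent. The sum itself was 39.99, 41.55 and 43.98 FPKM in Ctrl and 33.96, 33.96 and 30.42 in siPAIP1. IL17RB alone made up most of the sum in every library.

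**Figure D4:**
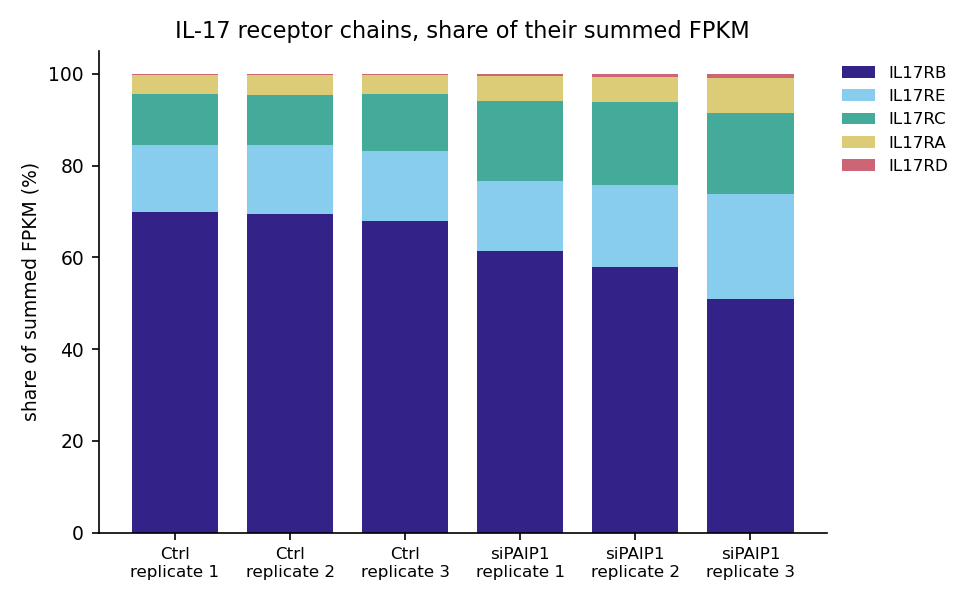
Stacked shares (%) of the 5 IL-17 receptor genes in their summed FPKM, 1 bar per library. IL17RB takes 68.0% to 69.9% in the Ctrl libraries and 50.9% to 61.3% in the siPAIP1 libraries.

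Of the other 8 listed genes of the IL-17 family, 4 were tested, 1 was higher and 0 lower. IL17RD, a receptor-like chain also known as a brake on fibroblast growth factor signaling, rose from 0.07, 0.08 and 0.11 FPKM to 0.18, 0.24 and 0.29 (log2 fold change 1.40, SE 0.27, adjusted p = 0.0193), yet it made up under 1% of the summed receptor FPKM in each library. IL17RE had 5.81, 6.26 and 6.69 FPKM in Ctrl and 5.23, 6.05 and 6.95 in siPAIP1 (log2 fold change −0.06, SE 0.14, adjusted p = 0.800). The ligand genes IL17B, at 0.20 to 0.46 FPKM, and IL17D, at 0.16 to 0.35, had log2 fold changes of −0.42 (SE 0.39, adjusted p = 0.513) and −0.28 (SE 0.33, adjusted p = 0.603). Among the 11 listed adaptors and other regulators of the signal of these receptors, all tested, 1 was higher and 2 were lower. The list mixes genes that carry the signal with genes that restrain it. The shares over all tested genes were 5.68% and 6.20%. TRAF3IP2, which encodes Act1, the adaptor recruited directly by the receptor, went from 3.12, 3.15 and 3.49 FPKM to 2.68, 2.79 and 2.02 (log2 fold change −0.42, SE 0.10, adjusted p = 0.0445). TAB3, a partner of the kinase TAK1, was also lower (log2 fold change −0.45, SE 0.075, adjusted p = 0.0115). TRAF3, a known inhibitor of this receptor, went from 1.83, 1.80 and 1.95 to 2.76, 2.67 and 3.47 (log2 fold change 0.66, SE 0.14, adjusted p = 0.0274). TRAF2, which acts with Act1 in stabilizing transcripts, had 9.76, 9.77 and 10.23 FPKM in Ctrl and 13.24, 11.86 and 15.80 in siPAIP1 and was not called (log2 fold change 0.44, SE 0.14, adjusted p = 0.0837). Of 13 listed genes that IL-17 induces, 3 were tested. CCL20, a chemokine for cells with the receptor CCR6, fell from 22.52, 21.24 and 24.92 FPKM to 13.01, 14.62 and 10.44 (log2 fold change −0.88, SE 0.11, adjusted p = 0.00469). CXCL8, a neutrophil chemokine, had a log2 fold change of −0.13 (SE 0.19, adjusted p = 0.676), and CSF3, the granulocyte colony-stimulating factor, of 0.64 (SE 0.23, adjusted p = 0.124).

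IL13RA1 (ENSG00000131724.10, chrX:118727133-118794535, plus strand), which binds IL-13 and pairs with IL4R, had 32.32, 31.12 and 33.24 FPKM in Ctrl and 27.85, 26.31 and 20.95 in siPAIP1. The groups did not overlap, and siPAIP1 replicate 3 was the lowest. The log2 fold change was −0.40 (SE 0.086, adjusted p = 0.0277), or 0.760 of Ctrl. This call was lost without Ctrl replicate 1, 2 or 3 or siPAIP1 replicate 2 (adjusted p of 0.0712 to 0.116, log2 fold changes of −0.42 to −0.39), and by limma-trend on log2 FPKM with a pseudocount of 0.1 or 1 (adjusted p = 0.117 and 0.122, log2 fold changes of −0.37 and −0.36). Without siPAIP1 replicate 3 the log2 fold change was −0.33 and edgeR's adjusted p was 0.00192. IL4R (ENSG00000077238.13, chr16:27313668-27364778, plus strand), which binds IL-4, had 12.26, 13.07 and 13.77 FPKM in Ctrl and 12.35, 13.03 and 15.42 in siPAIP1. The groups overlapped and the log2 fold change was 0.04 (SE 0.13, adjusted p = 0.848). Its exons overlap the gene ENSG00000274092 on the other strand. The ratio of IL13RA1 to IL4R was 2.64, 2.38 and 2.41 in Ctrl and 2.25, 2.02 and 1.36 in siPAIP1 (exact two-sided permutation test, p = 0.1, 0.167 after Benjamini-Hochberg adjustment over 5 pairs). The groups did not overlap, and the log2 change of the mean ratio was −0.40, or −0.21 without siPAIP1 replicate 3. Of 9 listed genes that IL-4 and IL-13 induce, 2 were tested. CCL26, the eosinophil chemokine eotaxin-3, fell from 1.71, 1.14 and 2.16 FPKM to 0.85, 0.84 and 0.73 (log2 fold change −1.06, SE 0.28, adjusted p = 0.0479), and TGM2, a transglutaminase, had a log2 fold change of −0.20 (SE 0.084, adjusted p = 0.162).

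IL15 (ENSG00000164136.16, chr4:141636583-141733987, plus strand) was counted 8, 16 and 6 times in Ctrl and 10, 17 and 2 times in siPAIP1. IL15RA (ENSG00000134470.19, chr10:5943639-5978187, minus strand) was counted 7, 8 and 14 times in Ctrl and 15, 10 and 10 times in siPAIP1. The groups overlapped for both genes, and a difference was not detectable at this depth. The log2 fold change of IL15RA was 0.22 (SE 0.40, adjusted p = 0.739). Its exons overlap the gene ENSG00000232807 on the same strand. The ratio of IL15RA to IL15 FPKM ranged from 1.17 to 7.0 in Ctrl and from 1.5 to 9.0 in siPAIP1, and the groups overlapped (exact two-sided permutation test, p = 0.6, also after adjustment). These ratios are coarse, since IL15 was at 0.01 to 0.06 FPKM and FPKM were given with 2 decimals. The log2 change of the mean ratio was 0.46 by FPKM and 0.93 by CPM, and −0.44 to 1.56 on leaving out 1 library. Of 15 listed genes of the common gamma chain, IL-4 and IL-13 family, 3 were tested and 0 were called, beside 11.9% of all tested genes. IL2RG, the common gamma chain through which IL-15 signals, had 0.21, 0.21 and 0.27 FPKM in Ctrl and 0.21, 0.12 and 0.07 in siPAIP1 (log2 fold change −0.76, SE 0.40, adjusted p = 0.249). The other 2 were IL7, a cytokine of lymphocyte development, with a log2 fold change of 0.18 (SE 0.25, adjusted p = 0.663), and IL21R, the IL-21 receptor chain, with 0.07 (SE 0.36, adjusted p = 0.914). Of 7 listed genes of the IL-3, IL-5 and GM-CSF family, 1 was tested, IL5RA, at 0.02 to 0.09 FPKM (log2 fold change 0.13, SE 0.60, adjusted p = 0.909).

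Downstream of these receptors, 2 of the 10 tested Janus kinases and STATs were higher and 0 lower, beside 5.68% and 6.20% of all tested genes. STAT3, the main transcription factor of IL-22 signaling, rose from 17.62, 18.24 and 17.86 FPKM to 26.49, 26.75 and 29.45 (log2 fold change 0.60, SE 0.094, adjusted p = 0.00943). STAT5B, which acts in IL-15 signaling among others, rose from 6.01, 5.93 and 6.06 to 7.68, 7.72 and 8.54 (log2 fold change 0.39, SE 0.096, adjusted p = 0.0410). In both genes every siPAIP1 library was above every Ctrl library, while IL22RA1 was below. JAK2 had a log2 fold change of 0.26 (SE 0.11, adjusted p = 0.157) and STAT5A of 0.57 (SE 0.20, adjusted p = 0.110). Of 15 listed and tested inhibitors of cytokine signals, 2 were lower and 0 higher, beside 6.20% and 5.68% of all tested genes. SOCS1, a feedback inhibitor of JAK kinases, fell from 5.09, 6.43 and 6.22 FPKM to 4.09, 3.78 and 3.25 (log2 fold change −0.70, SE 0.13, adjusted p = 0.0151). SOCS5, a relative of it, fell from 2.70, 2.53 and 2.73 to 1.94, 2.21 and 1.41 (log2 fold change −0.55, SE 0.13, adjusted p = 0.0359). SOCS3, the feedback inhibitor induced by STAT3, had 0.35, 0.30 and 0.36 FPKM in Ctrl and 0.14, 0.11 and 0.23 in siPAIP1 without overlap, and missed the threshold (log2 fold change −1.10, SE 0.33, adjusted p = 0.0715). PTPN6, a phosphatase, had a log2 fold change of −0.28 (SE 0.092, adjusted p = 0.0947).

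**Figure D5:**
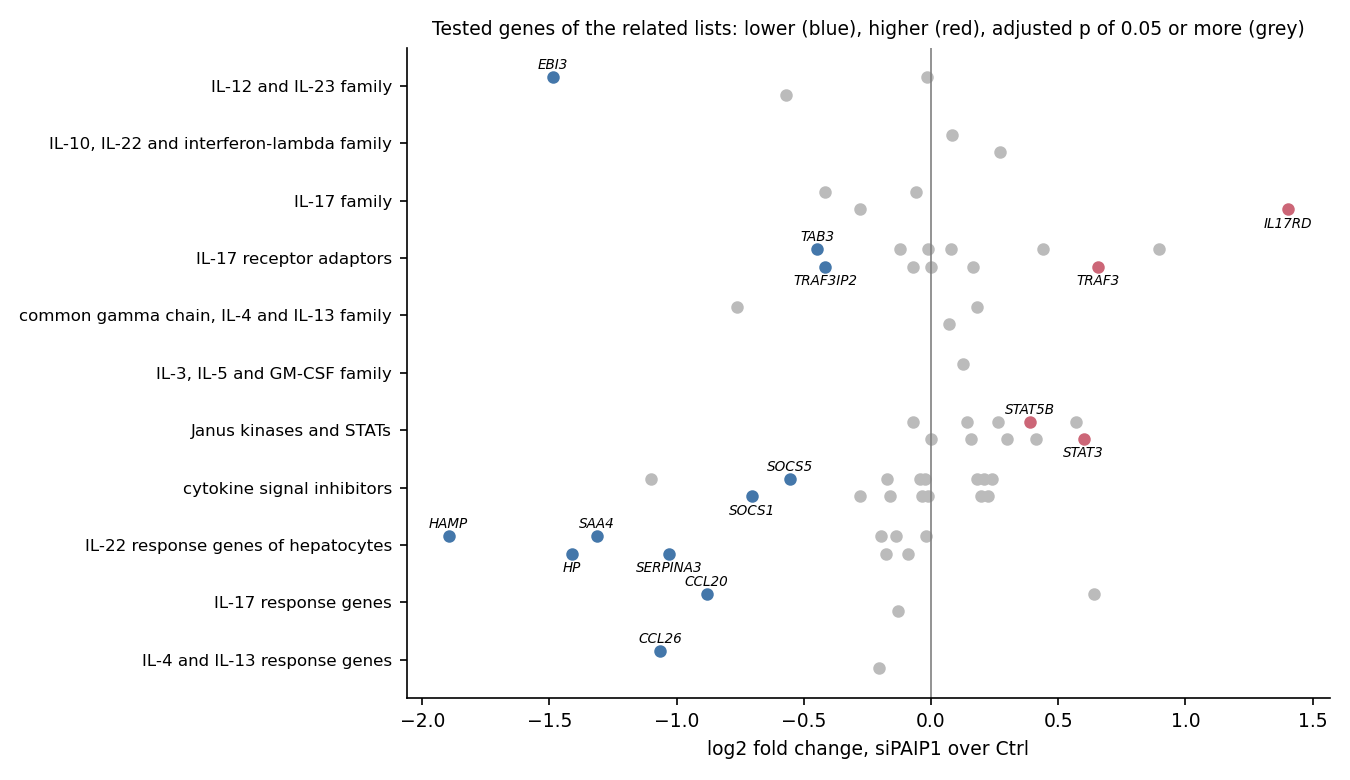
Log2 fold change of the tested genes of the 11 related lists, 1 point per gene, blue where lower and red where higher at an adjusted p under 0.05 and grey otherwise. The largest falls are HAMP at −1.90, EBI3 at −1.49 and HP at −1.41, and the largest called rise is IL17RD at 1.40.

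The 4 members called lower were placed in the genome with the 250 bases upstream of their RefSeq start (GRCh38.p14), printed 5′ to 3′ on the gene's strand because these members moved in the same direction. Capitals mark TATAAA, the AP-1-like pattern TGANTCA (N is any base) and the GC box GGGCGG. They were sought on both strands, and a motif can abut or overlap another. The windows are chr12:56338634-56338883 for IL23A, chr1:24143141-24143390 for IL22RA1, chr3:53846318-53846567 for IL17RB and chrX:118727356-118727605 for IL13RA1. The RefSeq start of IL23A lies inside the longer GENCODE gene given above, as that of IL13RA1 does.
IL23A promoter: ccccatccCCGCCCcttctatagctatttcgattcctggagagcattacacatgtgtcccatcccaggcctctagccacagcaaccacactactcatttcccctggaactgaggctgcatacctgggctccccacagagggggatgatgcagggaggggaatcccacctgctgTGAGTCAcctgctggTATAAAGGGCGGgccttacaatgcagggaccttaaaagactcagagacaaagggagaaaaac
IL22RA1 promoter: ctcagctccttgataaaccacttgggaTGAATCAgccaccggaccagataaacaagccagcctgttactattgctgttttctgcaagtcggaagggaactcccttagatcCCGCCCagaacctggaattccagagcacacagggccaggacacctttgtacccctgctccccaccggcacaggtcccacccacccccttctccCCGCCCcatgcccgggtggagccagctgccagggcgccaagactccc
IL17RB promoter: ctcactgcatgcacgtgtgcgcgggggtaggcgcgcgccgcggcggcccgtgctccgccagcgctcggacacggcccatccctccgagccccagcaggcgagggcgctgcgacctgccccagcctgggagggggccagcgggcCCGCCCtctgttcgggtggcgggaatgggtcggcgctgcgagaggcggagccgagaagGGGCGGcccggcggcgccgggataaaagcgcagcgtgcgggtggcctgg
IL13RA1 promoter: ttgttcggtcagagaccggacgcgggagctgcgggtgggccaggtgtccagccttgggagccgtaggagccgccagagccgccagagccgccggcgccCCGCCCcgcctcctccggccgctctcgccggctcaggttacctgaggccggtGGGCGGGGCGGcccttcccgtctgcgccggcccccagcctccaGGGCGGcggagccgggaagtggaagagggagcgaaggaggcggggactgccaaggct
IL23A had 3 CpG and 54.8% G and C, and IL22RA1 7 CpG and 60.0%, where the median of 35116 windows was 11 and 58.0%. IL17RB had 35 CpG and 77.6% G and C, and IL13RA1 28 CpG and 75.6%. The windows of members not called spanned this range, with 6 CpG in IL17RC, 17 in IL10RB, 35 in IL4R and 4 to 25 in the 4 windows of IL15RA. A match to TGANTCA stood 77 bases before the IL23A start (TGAGTCA) and 223 before that of IL22RA1 (TGAATCA), and 6.57% of all windows held one. This pattern is looser than the AP-1 consensus, whose middle base is C or G, so the IL22RA1 match is not a consensus AP-1 site. The share of windows with the stricter form was not counted. Among members not called, 3 of the 4 IL15RA windows held one, at 55, 123 and 123 bases, and 2 of these windows overlap and share the match. TATAAA was found only in IL23A among these 4, at 62 bases, against 10.7% of windows. GC boxes, in 42.6% of windows, were present in all 4. The STAT motif TTCNNNGAA (6.57% of windows), CAAAGTCCA for HNF4 (0.325%) and the motifs of NF-kB (0.527%) and HNF1 (0.0484%) had no match in these 4 windows, which says only that these letters are not there. For NF-kB and HNF1, a single strict pattern each was sought. Looser forms of the NF-kB motif were not sought, so the windows of the members called lower can still hold an NF-kB site. The members not called gave 7 more windows, of IL4R, IL10RB, IL17RC and IL15RA (4 starts), with 44.8% to 80.8% G and C, and IL15 and IL17RA had no window in the table used. 

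The 3′ UTRs of these 4 genes also differed. That of IL23A is 306 bases long and holds 4 ATTTA pentamers and 1 copy of the AU-rich nonamer TTATTTATT, which is in 9.04% of 12572 tested genes. IL13RA1 has 2679 bases with 7 pentamers, IL17RB 486 with 1, and IL22RA1 1034 with 0. The median 3′ UTR of the tested genes had 1249.5 bases, and 70.4% held at least 1 pentamer. Among the 10 genes the nonamer was in IL23A alone.

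Markers were checked for the cell type on the labels. All 8 listed hepatocyte markers were expressed, and 4 of them were lower in siPAIP1, ALB, APOA1, TTR and SERPINA1, with 0 higher. Over all tested genes, 6.20% were called lower and 5.68% higher. The log2 fold changes of APOA1, TTR and SERPINA1 were −0.51, −0.52 and −0.45. ALB, the albumin gene, went from 743.96, 684.87 and 701.30 FPKM to 556.82, 448.73 and 279.06 (log2 fold change −0.77, SE 0.20, adjusted p = 0.0455), lowest in siPAIP1 replicate 3 as IL17RB and IL13RA1 were. The summed FPKM of the list was 2595 to 2756 in Ctrl and 1468 to 2260 in siPAIP1, and its part in the changes of the members was not tested. Of 14 leukocyte markers, 12 were in the table and 8 tested. CD8A was called higher (0.52, 0.63 and 0.49 FPKM in Ctrl, 0.81, 0.92 and 0.85 in siPAIP1, log2 fold change 0.64, SE 0.16, adjusted p = 0.0452). The median log2 fold change of the 8 was −0.24. In CD3D (−0.68, SE 0.25, adjusted p = 0.124), CD4 (−0.74, SE 0.35, adjusted p = 0.205), CD14 (−1.20, SE 0.46, adjusted p = 0.137) and LYZ (−0.27, SE 0.12, adjusted p = 0.177) all siPAIP1 libraries were below all Ctrl libraries by CPM, without passing the test. Such a separation was common, with 17.6% of all tested genes below and 19.0% above. PTPRC, the CD45 gene that defines leukocytes, had 1 count in Ctrl replicate 1 and 0 in the other libraries. The summed FPKM of that list, 264 to 292 in Ctrl and 187 to 273 in siPAIP1, was nearly all LYZ, the lysozyme gene, at 259 to 286 and 182 to 269. Fibroblast and endothelial markers summed to 0.29 to 0.41 FPKM in Ctrl and 0.26 to 0.44 in siPAIP1, with 0 of 3 tested called. PECAM1 had a log2 fold change of −0.86 (SE 0.26, adjusted p = 0.0715), COL1A1 of 1.09 (SE 0.52, adjusted p = 0.211) and VWF of 0.46 (SE 0.43, adjusted p = 0.510), the last 2 highest in siPAIP1 replicate 3.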

How the data were processed

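Poly(A) RNA of 6 HepG2 libraries, 3 siPAIP1 and 3 Ctrl, was sequenced in paired-end mode. The authors cleaned the reads with FASTX-Toolkit 0.0.13, dropped those under 16 nt, aligned the rest with TopHat2 (GRCh38, 4 mismatches allowed) and deposited uniquely mapped fragment counts per gene, not normalized. The deposited FPKM were computed by the authors from these alignments, corrected for exon length and mapped fragments, with 2 decimals. Which tool counted the fragments, on which annotation and with or without strand is not given in the sources used here. Genes with overlapping neighbours (IL10RB, IL17RC and IL15RA on the same strand, IL17RB and IL4R on the other) are uncertain.

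Counts of 30987 genes were scaled by TMM and filtered with filterByExpr in edgeR 4.0.16 (R 4.3.3), which kept 15528 genes. The test was the quasi-likelihood F test (glmQLFit, glmQLFTest) with group as the only term and Benjamini-Hochberg adjustment over all of them (called at an adjusted p under 0.05, DEG also at 2-fold). FPKM served for levels and ratios between genes, since counts are not corrected for length, and ratios and shares were compared by exact permutation. The median biological coefficient of variation was 0.124. Totals of 29313211 to 34659866 counts leave IL23A, IL15 and IL15RA with few reads. The script was tested on simulated data. The members and gene lists were chosen with earlier results of these data known, and the promoter motifs with the sequences in view. All members, PAIP1 and up to 4 tested genes with the lowest adjusted p per list were named. IL12B, IL23R, LCN2, BCL3, FGA, FGB, FGG, SAA1, SAA2, CRP, LBP, REG3A, REG3G, CD4 and PTPRC were named after their values were seen. Where a symbol had 2 rows (SERPINA3 and CSF2RA), the row with more counts was used, which for SERPINA3 was ENSG00000273259.2. Positions, 3′ UTRs and overlaps came from GENCODE 44, promoters from RefSeq, which matched 8 of 10 members. The siRNA sequences are those the study lists. Alternatives used RLE and upper-quartile factors, other filters, DESeq2 1.42.0, edgeR's exact test, limma-trend (3.58.1) on FPKM, a replicate block and leaving out each library. Western blots, viability, Huh7 and tissue data were not analysed here.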

Additional observations from a re-analysis of the deposited data

How the results depend on the processing

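Of the 4 members called lower, 3 to 4 were called under the 9 alternatives that kept all libraries and 2 to 4 on leaving out 1 library, and 0 were called higher under any. IL22RA1 and IL17RB were called in all of these. IL23A was too rare for the filter at 1 CPM and its log2 fold change was −0.49 by limma-trend on log2(FPKM + 1), where the pseudocount exceeds its level. Among members that were not called, the sign turned for IL17RA (−0.028 without siPAIP1 replicate 3, within a range of −0.028 to 0.21 over the 6 libraries left out) and IL4R (−0.0031 without Ctrl replicate 1 and −0.11 without siPAIP1 replicate 3, within −0.11 to 0.12). Over all genes, 579 were higher and 453 lower by limma-trend on log2(FPKM + 0.1), and 533 and 436 on log2(FPKM + 1), which gave 19 higher and 29 lower DEGs. With no filter on low counts there were 324 higher DEGs. Leaving out 1 library gave 187 to 1857 genes higher and 269 to 1952 lower, both most without siPAIP1 replicate 3, and 55 to 196 higher and 88 to 235 lower DEGs, so the background shares above move with this choice. The cause was not tested.

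Replicate numbers are shared between the groups. Deviations of samples with the same number correlated at 0.451, −0.49 and −0.212 over 12182 genes, and not every sample correlated best with its own number. The highest correlation, 0.55, was between Ctrl replicate 2 and siPAIP1 replicate 3. Whether libraries of the 2 groups shared a batch, under the same or another number, cannot be told from so few libraries. With the replicate block, 366 genes were higher and 459 lower, with 98 higher DEGs, and 3 members were lower (adjusted p of 0.0146 for IL22RA1, 0.0290 for IL17RB, 0.0492 for IL23A and 0.0721 for IL13RA1 by edgeR's quasi-likelihood test).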
